A study of Mus musculus with 30 samples.

Results

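The growth hormone and insulin-like growth factor axis of the liver was followed in male mice through 10 genes: Ghr, Igf1, Igfals, Igfbp1, Igfbp2, Igfbp3, Igfbp4, Socs2, Cish and Bcl6. The genes were picked by symbol. Each was read from the probe set that is annotated to that gene alone and has the highest mean over 30 Affymetrix arrays. All 10 of the 10 genes passed the filter on dim genes, out of 18193 genes on the arrays and 12795 tested, and on all 30 arrays each lay above the array's median.

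Adult males on a C57BL/6J background were gavaged daily with 1,4-dichlorobenzene (DCB, a mothball chemical) at 600 mg/kg, with the antiandrogen and progestin cyproterone acetate (CPA) at 160 mg/kg, or with corn oil as vehicle. There were 4 genotypes: wild type (WT), hCAR/hPXR mice humanised for the nuclear receptors CAR and PXR, CARko/PXRko mice deleted for both, and PXRko mice deleted for PXR, which were measured under corn oil alone. This gave 10 groups of 3 arrays, and livers were taken 1 day after the last of 3 daily doses, per the protocol. The sample labels give 3 days for corn oil and DCB, but 6 days for CPA in WT and hCAR/hPXR mice and 3 days for CPA in CARko/PXRko mice, so genotype and labelled duration cannot be told apart where CPA effects are compared with those in CARko/PXRko mice. In WT and hCAR/hPXR mice CPA likewise differs from corn oil and DCB in labelled days, and there compound and labelled duration cannot be told apart. No age is stated beyond adult.

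Growth hormone from the pituitary binds its receptor on hepatocytes and activates the kinase JAK2 and the transcription factor STAT5B. STAT5B switches on Igf1, whose product carries much of the growth signal through the blood, and Igfals, whose product holds IGF1 and IGFBP3 in a stable circulating complex. It also switches on Socs2 and Cish, which dampen the receptor's signal, and it represses Bcl6, itself a repressor of STAT5 target genes. In male rodents growth hormone is released in pulses, and the levels of quick STAT5 targets in liver follow these pulses. Igfbp1 and Igfbp2 encode binding proteins that respond to insulin and feeding.

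All values are log2 signals as deposited, and a difference of 1 is a doubling. Differences of group means carry their SE (3 arrays a group) and were tested with limma over all 12795 genes, and a gene was called at a Benjamini-Hochberg adjusted p under 0.05. Nothing in the labels ties each array to its own mouse, and the p-values therefore rest on the spread among these arrays, which may be technical. In whole liver, fewer cells of a type and less RNA per cell cannot be told apart. The mean of 9 hepatocyte markers lay between 13.23 and 14.12 on every array. The deleted mouse receptor genes were low where the labels say so: the group means of Nr1i2 (PXR) were 4.41 to 4.78 in the 7 groups of altered genotype and 7.53 in WT mice given corn oil. Cyp2b10, a CAR target, rose by 3.98 ± 0.77 under DCB in WT mice (adjusted p = 0.0083) and was not called in CARko/PXRko mice (-0.56 ± 0.77, adjusted p = 0.918). Under CPA it rose in WT (7.28 ± 0.77, adjusted p = 6.73e-06), hCAR/hPXR (6.13 ± 0.77, adjusted p = 2.76e-05) and CARko/PXRko mice (3.51 ± 0.77, adjusted p = 0.00812), so that under CPA it does not check the loss of the receptors. Skeletal muscle transcripts were present on 4 arrays, corn oil CARko/PXRko 2, corn oil PXRko 3, and DCB CARko/PXRko 2 and 3, and the last of these also carried adrenal cortex transcripts.

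A difference somewhere among the 10 groups was called for Ghr (F = 6.47, adjusted p = 0.00298), Igf1 (F = 4.06, adjusted p = 0.026) and Igfbp2 (F = 11.9, adjusted p = 7.4e-05) in the moderated F test of limma. That is 3 of the 10 genes, where 15.6% of all genes tested were called. The other 7 had adjusted p-values from 0.112 for Igfbp3 to 0.791 for Cish. In all 6 comparisons of a treated group with corn oil of the same genotype the median of the 10 genes was below 0. It ran from -0.68 under DCB in hCAR/hPXR mice to -0.31 under CPA in WT mice. The median of all genes lay between -0.03 and 0.01. DCB and CPA share the controls of a genotype, so these 6 medians are not independent. The 10 genes were not tested as a set.

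The calls among the 10 genes were few. Under DCB in hCAR/hPXR mice 3 of 10 fell (Ghr, Igf1 and Igfbp3), where 4.35% of all genes fell. Under CPA 1 of 10 fell in hCAR/hPXR mice (Igfbp2; 2.90% of all genes fell) and 1 in CARko/PXRko mice (Ghr; 3.31%). In the effects averaged over WT, hCAR/hPXR and CARko/PXRko mice, comparisons added after these values were seen, 4 of 10 fell under DCB (Ghr, Igf1, Igfbp3 and Socs2), against 6.89% of all genes, and 2 of 10 under CPA (Ghr and Igfbp2), against 8.64%. None of the 10 was called in WT mice given DCB (0.735% of all genes were) or CPA (1.12%), or in CARko/PXRko mice given DCB (0.117%). At an unadjusted p under 0.05 in limma, the one tool run, 3, 1 and 2 of the 10 passed in these comparisons, where 10.1%, 10.3% and 8.10% of all genes did.

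**Figure D1:**
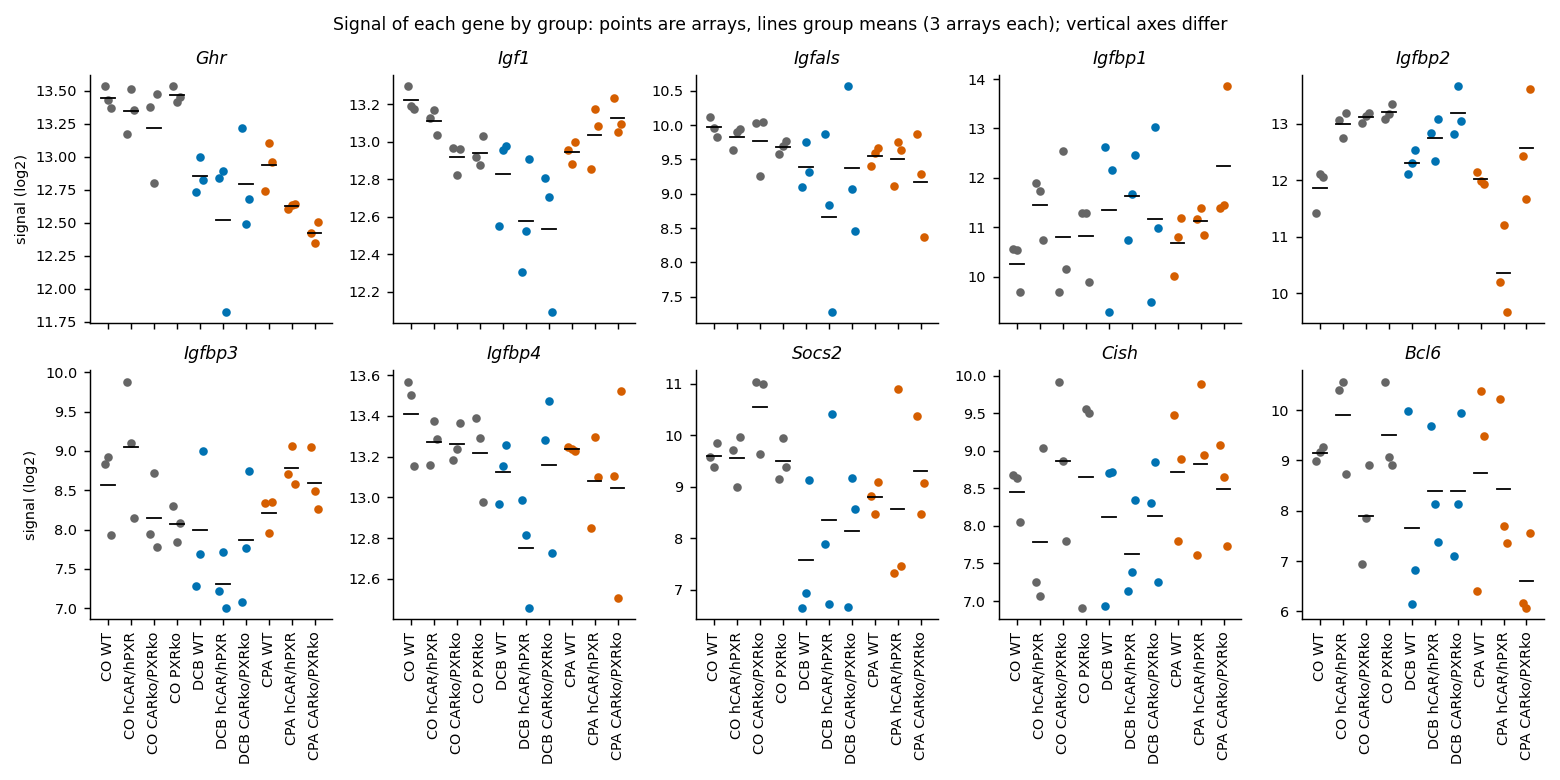
Signal on each array in log2 units (vertical axes, which differ between panels) for the 10 genes over the 10 groups; points are arrays, short lines are means of 3 arrays, grey is corn oil, blue DCB and orange CPA. Ghr is lower in the treated groups than in corn oil, Igf1 is low under DCB, and Igfbp2 is lowest in hCAR/hPXR mice given CPA, at 9.67 to 11.21.

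Ghr encodes the growth hormone receptor, the entry point of the axis. Its signal was 13.54, 13.43 and 13.37 in WT mice given corn oil, against 12.73, 13.00 and 12.82 under DCB and 12.74, 13.11 and 12.96 under CPA. In hCAR/hPXR mice it was 13.18, 13.52 and 13.36 under corn oil, against 12.84, 12.89 and 11.82 under DCB and 12.60, 12.64 and 12.64 under CPA. In CARko/PXRko mice it was 13.38, 12.80 and 13.47 under corn oil, against 13.22, 12.49 and 12.68 under DCB and 12.42, 12.35 and 12.50 under CPA. In 5 of the 6 comparisons every treated array was below every control array, as for 11.5% to 14.4% of all genes in each of these. DCB and corn oil arrays of CARko/PXRko mice overlapped. The lowest control there (12.80) and DCB arrays 2 and 3 (12.49 and 12.68) were arrays with muscle transcripts. The DCB array without them read 13.22, against 13.38 and 13.47 under corn oil. PXRko mice given corn oil read 13.54, 13.42 and 13.46, as high as the WT controls.

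Ghr fell in hCAR/hPXR mice given DCB (-0.83 ± 0.22, adjusted p = 0.0194) and in CARko/PXRko mice given CPA (-0.79 ± 0.22, adjusted p = 0.0318). It was -0.72 ± 0.22 in hCAR/hPXR mice given CPA (adjusted p = 0.0565), -0.60 ± 0.22 and -0.51 ± 0.22 in WT mice given DCB and CPA (adjusted p = 0.257 and 0.368), and -0.42 ± 0.22 in CARko/PXRko mice given DCB (adjusted p = 0.643), none of them called. The call under DCB was lost without corn oil hCAR/hPXR array 2 or 3 or DCB array 3, with values from -1.02 to -0.48 over the arrays left out one at a time. It was also lost in one other Ghr probe set (-0.65, adjusted p = 0.0574) and with only the groups compared in the fit (adjusted p = 0.223). The call under CPA was lost without corn oil CARko/PXRko array 1 or 3 or CPA array 1 or 2, with values from -1.002 to -0.67, and was made neither in the other Ghr probe sets (-0.32 and -0.66, adjusted p = 0.451 and 0.063) nor with only the groups compared (adjusted p = 0.141). Under CPA in hCAR/hPXR mice one other probe set was called (-0.91, adjusted p = 0.0109).

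Averaged over genotypes, Ghr fell by 0.62 ± 0.12 under DCB (adjusted p = 0.00169) and by 0.68 ± 0.12 under CPA (adjusted p = 0.000506), to 65.3% and 62.6% of the control signal. Both calls held with each of 18 arrays left out in turn, and under DCB and CPA alike they were made by all 3 Ghr probe sets. CPA and DCB were not told apart for Ghr (difference -0.06 ± 0.12, adjusted p = 0.794). No difference of the Ghr effect between genotypes was called. The 3 genes whose signals followed Ghr most closely over the 30 arrays were Daam1 (r = 0.91), Mfhas1 (r = 0.89) and Ptprf (r = 0.89); these correlations are descriptions over arrays that share the groups.

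**Figure D2:**
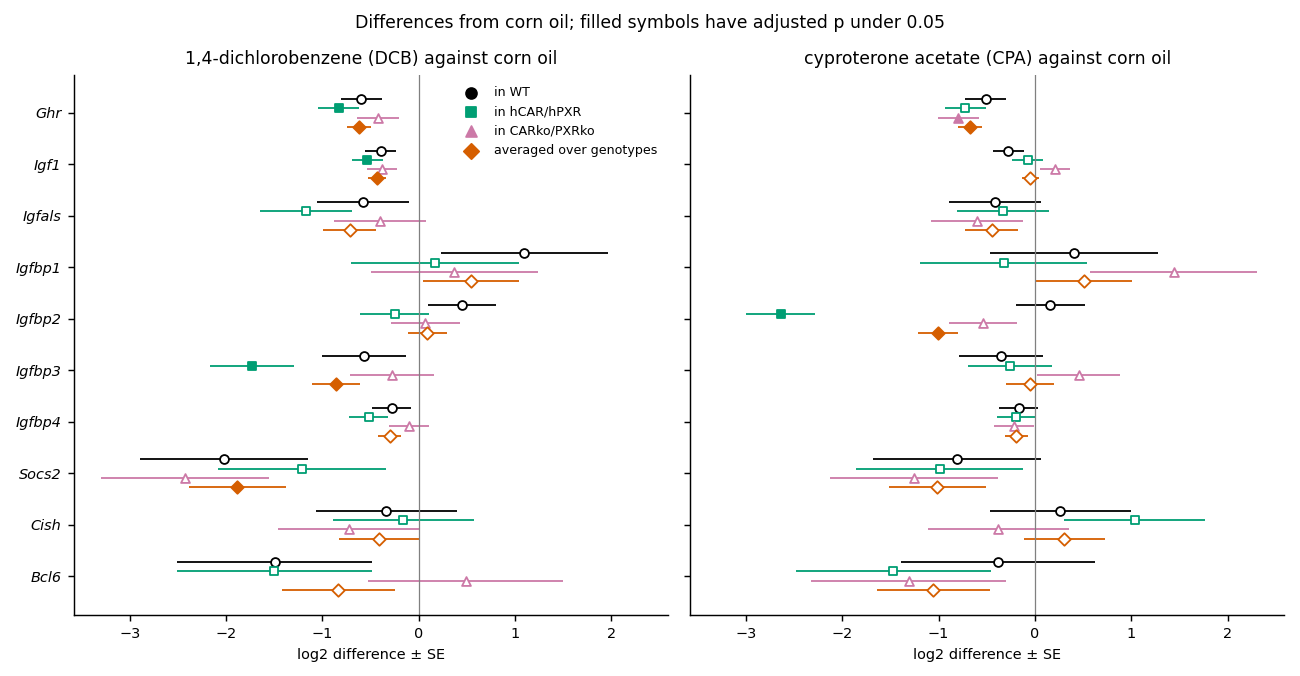
Log2 difference from corn oil of the same genotype (horizontal axis) ± SE for each gene under DCB (left) and CPA (right), by genotype and averaged over the 3 genotypes; filled symbols have an adjusted p under 0.05. Averaged over genotypes, Ghr, Igf1, Igfbp3 and Socs2 were lower under DCB, and Ghr and Igfbp2 under CPA.

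Igf1, the hormone gene itself, read 13.30, 13.19 and 13.18 in WT controls and 12.55, 12.95 and 12.98 under DCB. The hCAR/hPXR arrays read 13.13, 13.17 and 13.04 under corn oil and 12.30, 12.52 and 12.91 under DCB. In CARko/PXRko mice it read 12.97, 12.82 and 12.96 under corn oil and 12.81, 12.71 and 12.09 under DCB. Corn oil array 2 (12.82) and DCB arrays 2 and 3 (12.71 and 12.09) of this genotype carried muscle transcripts, and the DCB array without them read 12.81. In each genotype all DCB arrays were below all controls, as for 11.5%, 13.8% and 5.60% of all genes in WT, hCAR/hPXR and CARko/PXRko mice. Igf1 fell in hCAR/hPXR mice (-0.53 ± 0.16, adjusted p = 0.04), and was -0.39 ± 0.16 in WT and -0.38 ± 0.16 in CARko/PXRko mice without a call (adjusted p = 0.348 and 0.52). The single call did not last when corn oil array 1, 2 or 3 or DCB array 1 or 2 was left out (-0.70 to -0.40 over all arrays left out), nor with the replicate number as a block (adjusted p = 0.0503), nor in the dimmest Igf1 probe set (adjusted p = 0.0612), nor with only the groups compared (adjusted p = 0.212). Averaged over genotypes Igf1 fell by 0.44 ± 0.09 under DCB (adjusted p = 0.00237), a call that held without each of the 18 arrays and was made by all 4 Igf1 probe sets, at -0.85 to -0.44.

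Under CPA the averaged effects of the Igf1 probe sets disagreed. The brightest, used throughout, read 12.96, 12.88 and 13.00 in WT, 12.86, 13.18 and 13.08 in hCAR/hPXR and 13.23, 13.05 and 13.10 in CARko/PXRko mice, and its averaged effect was -0.05 ± 0.09 (adjusted p = 0.799). The dimmest gave -0.14 ± 0.13 (adjusted p = 0.523). The other two fell, the second in brightness by 0.55 ± 0.16 (adjusted p = 0.0201) and the third by 0.50 ± 0.15 (adjusted p = 0.0266). Over the 30 arrays the brightest and the dimmest followed each other (r = 0.91), as did the pair between them (r = 0.99). Across these pairs r was 0.56 to 0.65. The gap, the mean of the pair between minus that of the other pair, was not particular to CPA. In WT mice it was 0.59 under corn oil, 0.24 under DCB and 0.61 under CPA. In the same order it was 0.61, 0.16 and 0.16 in hCAR/hPXR and 0.89, 0.63 and 0.03 in CARko/PXRko mice. Under CPA the group means of CARko/PXRko mice showed the split most plainly. The effects there were +0.21 ± 0.16 and +0.17 ± 0.22 for the brightest and the dimmest. For the pair between they were -0.72 ± 0.27 and -0.62 ± 0.26, and none of these was called. The arrays of this group were unlike, with a gap of -0.71 to 0.65 under CPA against 0.65 to 1.11 under corn oil. Which transcripts each probe set reads was not tested, and an Igf1 fall under CPA therefore depends on the probe set.

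**Figure D3:**
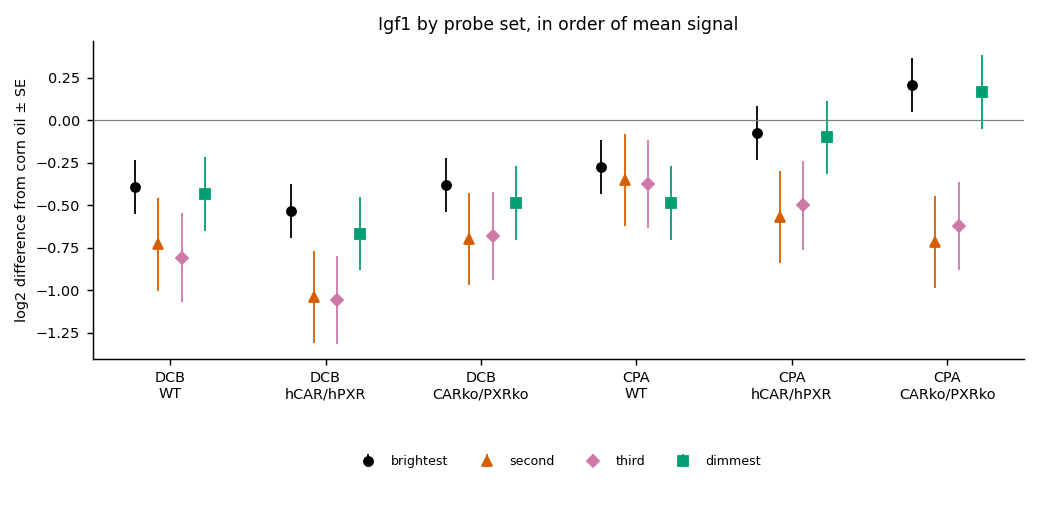
Log2 difference of Igf1 from corn oil of the same genotype ± SE (vertical axis) in each treated group, for 4 probe sets named by their order of mean signal. All 4 are below 0 in the 3 DCB groups; under CPA in CARko/PXRko mice 2 lie above 0 and 2 below.

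Igfals encodes the acid-labile subunit. It read 9.26 to 10.12 with a median of 9.87 on the 12 corn oil arrays, 7.28 to 10.57 (median 9.10) on the 9 DCB arrays and 8.37 to 9.87 (median 9.59) on the 9 CPA arrays. Its largest difference was in hCAR/hPXR mice given DCB, where the arrays read 9.88, 8.84 and 7.28 against 9.64, 9.91 and 9.95 (-1.17 ± 0.48, adjusted p = 0.14). Without DCB array 1, the highest of these 3, it was -1.77 and was called (adjusted p = 0.0239), and CPA against DCB was then 1.44 and called (adjusted p = 0.045). Leaving out the highest treated array widens a fall by construction, and no other array left out gave either call. The lowest array was the one with the lowest Ghr signal too. Averaged over genotypes the differences were -0.72 ± 0.28 under DCB (adjusted p = 0.0891) and -0.45 ± 0.28 under CPA (adjusted p = 0.324), neither called. Without DCB hCAR/hPXR array 1 or DCB CARko/PXRko array 1, the 2 highest DCB arrays, the averaged DCB difference was -0.92 and was called (adjusted p = 0.017 and 0.0179). It was called with no other array left out. Leaving out the CARko/PXRko array kept only arrays with muscle transcripts in its group, at 9.08 and 8.46.

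Igfbp3 encodes the main circulating carrier of IGF1, made in liver mostly by non-parenchymal cells. In hCAR/hPXR mice it read 9.88, 9.11 and 8.14 under corn oil, 7.22, 7.71 and 7.01 under DCB and 8.71, 9.07 and 8.58 under CPA. All 3 DCB arrays were below all controls and all CPA arrays. Of all genes, 13.8% were lower on every DCB array than on every control there. On every CPA array 11.0% were higher than on every DCB array. Igfbp3 fell by 1.73 ± 0.44 under DCB (adjusted p = 0.0169) and was higher under CPA than under DCB by 1.47 ± 0.44 (adjusted p = 0.0349). In WT and CARko/PXRko mice the DCB differences were -0.57 ± 0.44 and -0.28 ± 0.44, with overlapping arrays and no call. The DCB effect in hCAR/hPXR mice was not called different from that in WT (-1.16 ± 0.62, adjusted p = 1) or CARko/PXRko mice (-1.45 ± 0.62, adjusted p = 0.694). Averaged over genotypes Igfbp3 fell by 0.86 ± 0.25 under DCB (adjusted p = 0.0231), and its second probe set fell too (-0.69 ± 0.21, adjusted p = 0.0266). With only the groups compared in the fit, the averaged fall (adjusted p = 0.0709), the fall in hCAR/hPXR mice (adjusted p = 0.112) and the difference of CPA from DCB there (adjusted p = 0.0535) were not called. The fall in hCAR/hPXR mice was not called without corn oil array 1 or 2 or DCB array 3 (-2.18 to -1.31 over all arrays left out). The averaged fall was not called without corn oil WT array 2, corn oil hCAR/hPXR array 1, DCB WT array 1 or DCB CARko/PXRko array 1 (-1.03 to -0.72), and the higher level under CPA in hCAR/hPXR mice was not called without CPA array 1 or 2 or DCB array 1 or 3 (1.32 to 1.67).

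Some markers of non-parenchymal cells were lower in hCAR/hPXR mice given DCB, where 4.35% of all genes fell. Of 11 stellate cell and fibroblast markers, 4 fell in hCAR/hPXR mice given DCB and none rose, with a list median of -0.91, and the mean of the list was 7.93 to 8.63 there against 8.60 to 9.51 under corn oil. Of 11 Kupffer cell and macrophage markers, 7 fell in that comparison (list median -0.98). Under CPA in hCAR/hPXR mice 1 stellate marker and 8 Kupffer markers fell, where 2.90% of all genes did, while Igfbp3 was -0.26 ± 0.44 (adjusted p = 0.854). Averaged over genotypes 9 Kupffer markers fell under DCB and 9 under CPA, and 4 and 5 stellate markers, against 6.89% and 8.64% of all genes. Of 7 lymphocyte and dendritic cell markers, 4 fell under DCB and 5 under CPA in hCAR/hPXR mice. Of 10 sinusoidal endothelial cell markers 1 fell under DCB and 2 under CPA there, and none of the 3 cholangiocyte markers was called under either. The part of these cells in the Igfbp3 result was not tested. The genes closest to Igfbp3 over the 30 arrays were Adamtsl2 (r = 0.78), Ntn4 (r = 0.77) and Gucy1a1 (r = 0.76).

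Igfbp4 encodes a binding protein that hepatocytes make in quantity. It varied little, from 12.46 to 13.57, and was called in no comparison. Its difference was largest under DCB in hCAR/hPXR mice, where 12.99, 12.81 and 12.46 stood below 13.16, 13.38 and 13.29 (-0.52 ± 0.21, adjusted p = 0.125). There 13.8% of all genes were likewise lower on every DCB array than on every control.

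Igfbp2 encodes a binding protein that is abundant in liver and plasma, and it had the lowest F test p-value of the 10 genes. In hCAR/hPXR mice it read 13.06, 12.75 and 13.19 under corn oil, 12.82, 12.35 and 13.08 under DCB, and 10.21, 11.21 and 9.67 under CPA. In WT mice it read 11.42, 12.12 and 12.05 under corn oil and 12.14, 11.98 and 11.94 under CPA. In CARko/PXRko mice it read 13.00, 13.14 and 13.19 under corn oil and 12.42, 11.68 and 13.62 under CPA. The 3 arrays of hCAR/hPXR mice given CPA were the lowest of all 30, and the other 27 lay between 11.42 and 13.67. WT arrays under CPA overlapped their controls, and CARko/PXRko arrays under CPA spread to both sides of theirs.

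Igfbp2 fell by 2.64 ± 0.36 under CPA in hCAR/hPXR mice (adjusted p = 6.48e-05), to 16.1% of the control signal. It was also lower under CPA than under DCB there (-2.39 ± 0.36, adjusted p = 0.000201). Both calls held with each array of the groups compared left out in turn, at -3.06 to -2.29 and -2.81 to -2.04, and the second was lost when only those groups were fitted (adjusted p = 0.0594). The CPA effect was 0.16 ± 0.36 in WT (adjusted p = 0.965) and -0.54 ± 0.36 in CARko/PXRko mice (adjusted p = 0.399). Without CPA CARko/PXRko array 3, the one above its controls, the latter was -1.06 and was called (adjusted p = 0.0492), and CPA against DCB in that genotype was -1.13 and called (adjusted p = 0.0306). Neither was called with any other array left out. The effect in hCAR/hPXR mice minus that in WT mice was -2.80 ± 0.51 (adjusted p = 0.0255), with CPA labelled 6 days in both genotypes. That difference was called with 4 of 12 arrays left out in turn, and not without corn oil WT array 1, any of the 3 CPA WT arrays, corn oil hCAR/hPXR array 1 or 3, or CPA hCAR/hPXR array 1 or 3 (-3.22 to -2.45). Against CARko/PXRko mice, a comparison added after the values were seen, the difference was -2.10 ± 0.51, with an unadjusted p of 0.000369 and an adjusted p of 0.673. The CPA effect averaged over genotypes, -1.01 ± 0.21 (adjusted p = 0.00143), rests on these unlike values.

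Under corn oil no difference of Igfbp2 between genotypes was called. The 9 arrays of the 3 altered genotypes read 12.75 to 13.35 and the 3 WT arrays 11.42 to 12.12, without overlap. Taking each genotype alone, 4.37%, 4.24% and 4.37% of all genes were higher on every hCAR/hPXR, CARko/PXRko and PXRko array than on every WT array. The share higher in all 3 genotypes at once was not counted. The differences from WT were 1.14 ± 0.36 in hCAR/hPXR, 1.25 ± 0.36 in CARko/PXRko and 1.34 ± 0.36 in PXRko mice. All of them use the same 3 WT arrays and are not independent. Their unadjusted p-values of 0.00407, 0.00192 and 0.00103 ranked 15th, 26th and 13th of the 12795 genes, and the adjusted values of 1, 0.946 and 1 were far from a call. All 9 WT arrays, whatever the treatment, lay at or below 12.53. Under DCB the 6 arrays of the altered genotypes lay at 12.35 to 13.67, against 12.11 to 12.53 in WT mice. Whether the WT mice were littermates of the others is not stated in the labels, and colony and genotype cannot be told apart. Ung (r = 0.74), Chchd10 (r = 0.74) and Slc35e1 (r = 0.72) followed Igfbp2 most closely over the 30 arrays.

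Igfbp1 encodes a binding protein that rises fast in fasting and falls after insulin. Its signal ran from 9.28 to 13.86, with a pooled SD within groups of 1.15, and was called in no comparison. Under DCB in WT mice the arrays read 12.63, 9.28 and 12.16 against 10.56, 10.54 and 9.69, so that treated arrays lay on both sides of the controls (1.10 ± 0.87, adjusted p = 0.764). The highest signal, 13.86, was on array 3 of CARko/PXRko mice given CPA, where Igfals was lowest among CPA arrays. Feeding state at collection is not stated in the labels. Its promoter window is shown because it holds the short core of the element through which insulin is known to lower this gene, CAAAACA. The window (RefSeq, GRCm38.p6, chr11:7197537-7197836, plus strand, 250 bases before to 50 after the start site) has 1 match, 108 bases before the start site, in capitals.
Igfbp1: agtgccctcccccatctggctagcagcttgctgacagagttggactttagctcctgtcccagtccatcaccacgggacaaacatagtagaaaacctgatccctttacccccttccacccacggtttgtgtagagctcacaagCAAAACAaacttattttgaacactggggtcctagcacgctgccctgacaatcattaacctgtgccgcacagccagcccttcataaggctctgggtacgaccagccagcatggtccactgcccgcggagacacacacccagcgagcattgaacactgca
A match to CAAAACA on either strand stood in 6.28% of the 32851 promoter windows of the table. After the group means were taken off, Igfbp1 ran opposite to Igfals over arrays (r = -0.63, permutation p = 0.0048, adjusted 0.057). Its rho was -0.68 (permutation p = 0.0023, adjusted 0.035), and r was -0.53 without the 2 arrays farthest from the median of Igfbp1. Taken group by group, the sign was negative in 7 groups and positive in 3.

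Socs2 encodes a suppressor of cytokine signalling that STAT5 induces and that limits growth hormone action. In WT mice it read 9.58, 9.38 and 9.84 under corn oil and 6.65, 6.95 and 9.14 under DCB. The hCAR/hPXR arrays read 9.72, 8.99 and 9.97 under corn oil and 7.89, 6.73 and 10.42 under DCB. In CARko/PXRko mice it read 11.04, 9.64 and 11.00 under corn oil and 6.67, 9.17 and 8.56 under DCB. All DCB arrays were below all controls in WT and CARko/PXRko mice, as for 11.5% and 5.60% of all genes. In hCAR/hPXR mice 1 DCB array stood above the controls. The differences were -2.02 ± 0.87, -1.21 ± 0.87 and -2.43 ± 0.87 in the order WT, hCAR/hPXR and CARko/PXRko, none called (adjusted p = 0.396, 0.43 and 0.426). Averaged over genotypes Socs2 fell by 1.89 ± 0.50 under DCB (adjusted p = 0.0134), to 27.1% of the control signal. This call held without each of the 18 arrays, at -2.23 to -1.62. Without the arrays with muscle transcripts the averaged difference was -2.53. That fit kept only DCB array 1 in CARko/PXRko mice, the lowest of its group at 6.67.

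The other bright Socs2 probe set fell too (-1.82 ± 0.55, adjusted p = 0.0282). The averages of the remaining probe sets were not called, and these were above the array median on at most 12 of 30 arrays. Under CPA the averaged difference of Socs2 was -1.01 ± 0.50 (adjusted p = 0.2), with arrays of 8.82, 8.47 and 9.09 in WT, 7.34, 10.90 and 7.47 in hCAR/hPXR and 10.37, 8.47 and 9.08 in CARko/PXRko mice. Without CPA hCAR/hPXR array 2, the highest, it was -1.40 and was called (adjusted p = 0.0366). It was called with no other array left out. DCB and CPA were not told apart for Socs2 (0.87 ± 0.50, adjusted p = 0.256).

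Cish encodes CIS, another STAT5-induced inhibitor of the receptor, and Bcl6 encodes the repressor that growth hormone lowers. Neither was called in any comparison. Both varied widely among arrays of a group, with pooled SDs of 0.97 for Cish and 1.34 for Bcl6 against 0.19 for Igf1. The averaged differences of Cish were -0.41 ± 0.42 under DCB and 0.31 ± 0.42 under CPA. In WT mice given DCB, Bcl6 read 9.99, 6.14 and 6.82 where Cish read 6.94, 8.71 and 8.71. In WT mice given CPA, Bcl6 read 6.41, 10.39 and 9.48 and Cish 9.48, 7.80 and 8.89. In hCAR/hPXR mice given corn oil, Bcl6 read 10.40, 10.57 and 8.73 and Cish 7.25, 7.07 and 9.03. In these 3 groups the array or arrays with high Bcl6 had low Cish.

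After the group means were taken off, Bcl6 and Cish correlated at r = -0.83 over the 30 arrays (rho = -0.81), and within each of the 10 groups the sign was negative. Permuting arrays within groups 100000 times gave a permutation p = 3e-05 for r and 6e-05 for rho, adjusted over 45 pairs of the 10 genes to 0.0013 and 0.0027. Without the 2 arrays farthest from the median on the Bcl6 axis, r was -0.85, and it was -0.85 over the 26 arrays without muscle transcripts. It was the single pair of the 45 with an adjusted p for r under 0.05. Bcl6 and Igf1 gave r = -0.64 (permutation p = 0.0031, adjusted 0.057; rho = -0.56, permutation p = 0.014, adjusted 0.1), and Cish and Igf1 r = 0.52 (permutation p = 0.0051, adjusted 0.057; rho = 0.48, permutation p = 0.019, adjusted 0.12). Cish and Socs2, both STAT5 targets, gave r = 0.47 (permutation p = 0.025, adjusted 0.14; rho = 0.55, permutation p = 0.009, adjusted 0.081). Ghr and Igfals gave r = 0.75 (permutation p = 0.013, adjusted 0.12) and rho = 0.74 (permutation p = 0.0016, adjusted 0.035). Without the 2 arrays farthest from the median of Igfals, r was 0.63. For this pair the sign was positive in 8 groups and negative in 2. The labels give no batch, day or hour of collection, so no value within such a batch can be had, and the part of the time since a growth hormone pulse was not tested.

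**Figure D4:**
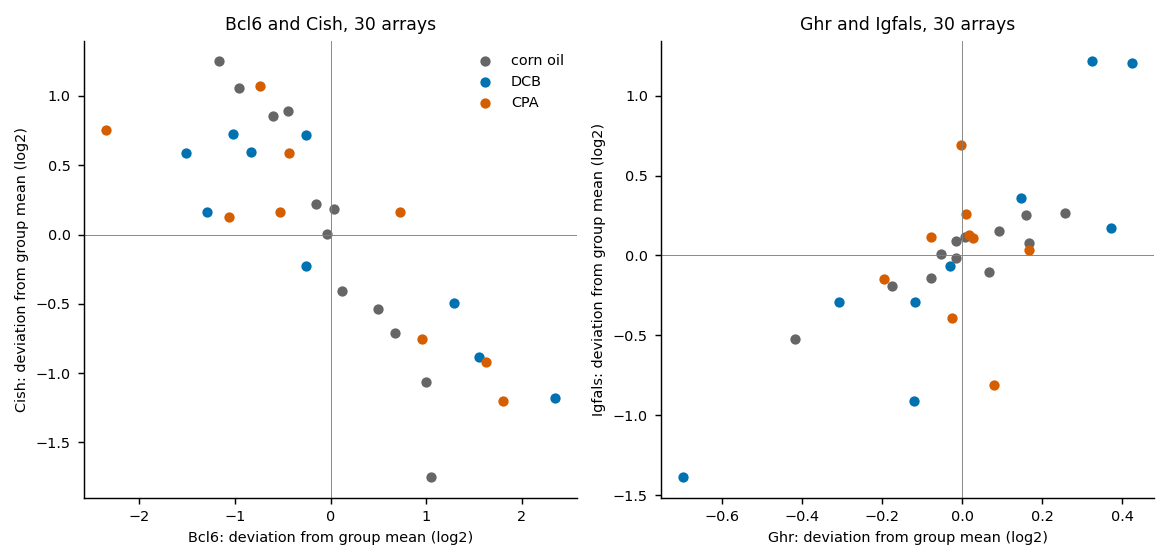
Deviation of each array from its group mean in log2 units, for Bcl6 (horizontal) against Cish (vertical) on the left and Ghr against Igfals on the right; points are the 30 arrays, coloured by treatment. Bcl6 and Cish run opposite in corn oil, DCB and CPA arrays (r = -0.83), and Ghr and Igfals run together (r = 0.75).

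The promoter windows of Cish and Bcl6 are shown because these genes are known STAT5 targets that move in opposite directions. Windows were available for 9 members, 14 windows in all from RefSeq on GRCm38.p6, each 300 bases long. The STAT5 motif TTCNNNGAA, a palindrome and so the same on both strands, was found in 5 of the 14, and 8.3% of the 32851 windows of the table hold it. In the lines below, capitals mark its matches: 2 for Cish (chr9:107296409-107296708, plus strand), 1 for the upstream Bcl6 window (chr16:23988803-23989102, minus strand) and 3 for the other Bcl6 window (chr16:23981234-23981533, minus strand).
Cish: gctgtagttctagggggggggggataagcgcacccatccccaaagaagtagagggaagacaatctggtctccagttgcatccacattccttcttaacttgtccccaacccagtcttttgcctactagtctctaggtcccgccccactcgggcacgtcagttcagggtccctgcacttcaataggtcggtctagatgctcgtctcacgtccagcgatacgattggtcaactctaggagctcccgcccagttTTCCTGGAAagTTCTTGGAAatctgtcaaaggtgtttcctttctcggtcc
Bcl6, upstream start: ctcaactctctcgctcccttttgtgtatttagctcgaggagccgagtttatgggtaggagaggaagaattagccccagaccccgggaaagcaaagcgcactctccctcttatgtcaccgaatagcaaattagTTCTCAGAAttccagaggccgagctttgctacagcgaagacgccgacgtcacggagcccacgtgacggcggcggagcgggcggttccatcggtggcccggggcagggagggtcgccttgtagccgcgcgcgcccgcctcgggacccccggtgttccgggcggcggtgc
Bcl6, other start: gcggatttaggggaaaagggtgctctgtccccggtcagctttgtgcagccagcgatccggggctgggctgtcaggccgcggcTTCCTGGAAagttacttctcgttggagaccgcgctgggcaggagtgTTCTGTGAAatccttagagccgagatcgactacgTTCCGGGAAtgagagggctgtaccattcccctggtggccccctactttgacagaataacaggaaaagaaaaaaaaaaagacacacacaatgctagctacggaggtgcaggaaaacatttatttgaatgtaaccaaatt
The Cish matches begin at bases 1 and 12 counted from the start site, and the 3 Bcl6 matches at 168, 122 and 88 bases before it. Igfals held a match in 2 of its 3 windows. The FOXO motif TGTTTAC, searched on both strands, was in 1 member window, of Igfals, and in 3.65% of all windows. The windows of Ghr, Igf1, Igfbp2, Igfbp3 and Igfbp4 held none of the 3 motifs. These matches are letters in a window and no binding was measured in these livers.

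CPA was also set directly against DCB. This needs no shared control, but in WT and hCAR/hPXR mice, and so in the average, CPA is labelled 6 days and DCB 3 days, and compound and labelled duration cannot be told apart. In hCAR/hPXR mice Igfbp2 was lower (1 of 10, where 4.06% of all genes were) and Igfbp3 higher (1 of 10; 5.24%). Igf1 was 0.46 ± 0.16 there and was not called (adjusted p = 0.0671). It was called without the arrays with muscle transcripts (adjusted p = 0.037) or without DCB array 3 (0.625, adjusted p = 0.022). In CARko/PXRko mice Igf1 was higher by 0.59 ± 0.16 (adjusted p = 0.0252; 1 of 10, where 3.27% of all genes were), a call lost without CPA array 1 or DCB array 3 (0.37 to 0.73), without the arrays with muscle transcripts, with only the groups compared, and in the 3 other Igf1 probe sets. In WT mice none of the 10 was called (2.01% of all genes) and 0 of 10 had an unadjusted p under 0.05, as 14.4% of all genes did. Averaged over genotypes, Igf1 was higher under CPA than under DCB by 0.39 ± 0.09 (adjusted p = 0.00409) and Igfbp3 by 0.81 ± 0.25 (adjusted p = 0.0257), 2 of 10 where 8.30% of all genes were higher. Igfbp2 was lower, at -1.10 ± 0.21 (adjusted p = 0.000593), 1 of 10 where 10.4% were lower. The dimmest Igf1 probe set was called as well (0.39 ± 0.13, adjusted p = 0.0319), while the pair between was not (0.28 ± 0.16 and 0.35 ± 0.15, adjusted p = 0.245 and 0.112). The Igfbp3 difference was not called without DCB WT array 1, DCB CARko/PXRko array 1 or CPA CARko/PXRko array 1 (0.68 to 0.98 over all arrays left out). Without DCB WT array 2 it lay at the threshold.

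Among genotypes under corn oil none of the 10 was called against WT in hCAR/hPXR (0.0234% of all genes were), CARko/PXRko (0.0391%) or PXRko mice (0.0234%), and in each 1 of 10, Igfbp2, had an unadjusted p under 0.05, as 1.45%, 3.31% and 1.72% of all genes did. Of the differences between effects, the lower Igfbp2 effect of CPA in hCAR/hPXR than in WT mice was 1 of 4 such genes among 12795, or 0.0313%. For CPA in CARko/PXRko against WT mice none of the 10 was called (0.0703% of all genes were) and 1 had an unadjusted p under 0.05, as 7.56% of all genes did. For DCB none was called in hCAR/hPXR or CARko/PXRko against WT mice, where 0% of all genes were called, and none had an unadjusted p under 0.05, as 3.11% and 2.53% of all genes did. Between hCAR/hPXR and CARko/PXRko mice none was called for DCB (0.00782% of all genes) or CPA (0%), and 1 of 10 in each, Igfbp3 and Igfbp2, had an unadjusted p under 0.05, as 6.78% and 6.56% of all genes did.

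Genes around the axis were read from lists. Of all genes, 6.54% rose and 6.89% fell under DCB averaged over genotypes, and 5.35% rose and 8.64% fell under CPA; no list was tested against these shares. Of 13 other genes of growth hormone receptor signalling, Jak2 and Stat5b fell in hCAR/hPXR mice given DCB, by 0.76 ± 0.16 (adjusted p = 0.00479) and 0.92 ± 0.14 (adjusted p = 0.000442), and none rose; the list median was -0.15. Averaged over genotypes 3 of 13 fell under DCB, Jak2 (-0.39 ± 0.09, adjusted p = 0.00585), Stat5b (-0.53 ± 0.08, adjusted p = 0.000155) and the suppressor Socs7 (-0.50 ± 0.15, adjusted p = 0.0318). Under CPA 2 of 13 fell, Jak2 (-0.31 ± 0.09, adjusted p = 0.0228) and Stat5a (-0.45 ± 0.10, adjusted p = 0.00333). The kinase gene thus fell with the receptor gene in both treatments, and Stat5b was higher under CPA than under DCB (0.33 ± 0.08, adjusted p = 0.00673).

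Of 13 genes for IGF receptors, other ligands and proteases, Grb14, an adaptor that inhibits insulin signalling, fell under DCB averaged over genotypes (-0.29 ± 0.06, adjusted p = 0.0036) and the protease Ctsd rose (0.48 ± 0.09, adjusted p = 0.000776). Under CPA none of the 13 was called on average, and Pik3r1, a subunit of the PI3 kinase, rose in hCAR/hPXR mice (1.06 ± 0.30, adjusted p = 0.0463). Of 9 further binding and related proteins, Ccn2 rose under CPA on average (1.81 ± 0.32, adjusted p = 0.000274), while Igfbp7 (-0.73 ± 0.15, adjusted p = 0.00211) and Ccn1 (-0.60 ± 0.17, adjusted p = 0.0187) fell. Under DCB 1 of the 9 fell, Ecm1 (-0.47 ± 0.12, adjusted p = 0.00773), which is also on the stellate cell list.

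Many liver genes differ between males and females through the pattern of growth hormone release. Of 12 male-biased genes of this kind 5 fell under DCB averaged over genotypes and none rose, with a list median of -0.39. The complement gene C6 fell by 1.51 ± 0.20 (adjusted p = 2.34e-05), the organic anion transporter gene Slco1a1 by 1.57 ± 0.46 (adjusted p = 0.0253), the fatty acid elongase gene Elovl3 by 1.28 ± 0.41 (adjusted p = 0.0367) and Nudt7 by 0.92 ± 0.22 (adjusted p = 0.0065). Under CPA 2 of the 12 fell, Nudt7 by 1.94 ± 0.22 (adjusted p = 1.31e-06) and Elovl3 by 1.71 ± 0.41 (adjusted p = 0.00508). Of 9 female-biased genes none was called under DCB on average, and under CPA 5 rose and 1 fell, with a list median of 0.99. Sult1e1, an estrogen sulfotransferase gene, rose by 7.27 ± 0.40 (adjusted p = 1.46e-11), and Abcd2 fell by 1.99 ± 0.34 (adjusted p = 0.000247).

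Of 15 genes that respond to insulin or fasting, Ddit4 rose under DCB (0.99 ± 0.14, adjusted p = 6.89e-05) and CPA (2.50 ± 0.14, adjusted p = 2.73e-11) averaged over genotypes. Under DCB G6pc, which encodes the last enzyme of glucose release, fell by 1.75 ± 0.33 (adjusted p = 0.000921) and Foxo3 by 0.49 ± 0.16 (adjusted p = 0.0485). Under CPA Foxo1 (0.54 ± 0.14, adjusted p = 0.00697) and Cdkn1a (1.69 ± 0.34, adjusted p = 0.00117) rose, and none fell. In each of these averaged comparisons 12 of the 15 were not called.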

How the data were processed

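Liver RNA was measured on 30 Affymetrix arrays. The deposited values are log2 probe set signals made with RMA, per the submitters' processing notes; the RMA version is not stated there. Probe sets were named from GEO's platform annotation: 34945 of 45037 had 1 gene, 932 several and 9160 none. The gene's probe set with the highest mean was used, and tested where it exceeded the array median on at least 3 arrays. One limma 3.58.1 model (R 4.3.3, lmFit and eBayes) with 1 mean for each of the 10 groups used all arrays together (20 residual degrees of freedom). The tests were checked on simulated data. Members and lists were chosen with earlier results of these data known. All members, up to 4 called genes per list and comparison, the 3 closest genes per member and 3 label checks were named. Effects averaged over genotypes and differences between hCAR/hPXR and CARko/PXRko mice were added after seeing the data. The design text states 5 mice per group. Array replicate numbers deviated together (every pair over 0.1) in 2 of 12 comparisons, hCAR/hPXR and PXRko against WT under corn oil, and a block changed no member call there. The number of arrays limits the precision.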

Additional observations from a re-analysis of the deposited data

Results flagged for a closer look

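The CPA effect on Igfbp2 was called different between hCAR/hPXR and WT mice: the effect in hCAR/hPXR minus that in WT mice was -2.80 ± 0.51 on the log2 scale (adjusted p = 0.0255, limma). That call held with 4 of 12 arrays left out in turn. Under corn oil the group means already stood apart, at 13.00 in hCAR/hPXR and 11.86 in WT mice, a difference that was not called. All 3 CPA arrays of hCAR/hPXR mice were below their controls, as for 13.0% of all genes, while the WT arrays overlapped theirs.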

How the results depend on the processing

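The fall of Igfbp2 under CPA in hCAR/hPXR mice was called under every alternative and with each array left out. The number of members called moved under these alternatives; where it did, the cause was not tested beyond what each alternative changes. For CPA in hCAR/hPXR mice it was 2 in place of 1 with quantile normalization applied again, probe sets averaged per gene, a trended robust variance, only the groups compared, or without the arrays with muscle transcripts; the second gene was Ghr each time. With only the groups compared it was 2 for CPA in WT mice (Ghr and Socs2) and 0 for DCB in hCAR/hPXR, CPA in CARko/PXRko, and CPA against DCB in each of those genotypes, and it was 3 against 4 for averaged DCB, without Igfbp3. With averaged probe sets it was 0 for CPA in CARko/PXRko mice and for CPA against DCB there, and the latter was 0 without muscle arrays too. One value reversed, Igf1 in CPA against DCB in CARko/PXRko mice, at -0.02 for the Igf1 probe set second in brightness.

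With 1 array left out the number of members called ran from 0 to 3 for DCB in hCAR/hPXR mice, from 1 to 1 for CPA in hCAR/hPXR mice, from 0 to 2 for CPA in CARko/PXRko mice and for CPA against DCB there, from 0 to 1 for the CPA effect in hCAR/hPXR minus WT mice, from 1 to 2 for CPA against DCB in hCAR/hPXR mice, from 3 to 5 and 2 to 3 for the averaged DCB and CPA effects, from 2 to 3 for averaged CPA against DCB, and from 2 to 4 in the F test.

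Counts over all genes moved most with only the groups compared: DCB in hCAR/hPXR mice 82 against 978 in the fit to all arrays, DCB in CARko/PXRko 0 against 15, CPA in WT 774 against 143, CPA in CARko/PXRko 136 against 702, and CPA against DCB 781 against 257 in WT, 65 against 1191 in hCAR/hPXR and 7 against 972 in CARko/PXRko mice. Without muscle arrays DCB in CARko/PXRko gave 7, corn oil CARko/PXRko against WT 9 against 5, and CPA against DCB 439 in WT and 118 in CARko/PXRko mice. Averaged probe sets gave 5 against 8 for the CPA effect in hCAR/hPXR minus WT, and a trended robust variance 5 against 9 in CARko/PXRko minus WT mice. Of the differences between effects, DCB in CARko/PXRko minus WT gave 1 or 2 genes under 4 alternatives against 0, DCB in hCAR/hPXR minus CARko/PXRko 3 at a filter at the 75th percentile and 0 under 3 others against 1, and CPA in hCAR/hPXR minus CARko/PXRko 1 under 2 alternatives against 0. With 1 array left out, DCB gave 37 to 115 genes in WT, 337 to 1056 in hCAR/hPXR and 6 to 72 in CARko/PXRko mice, and CPA 38 to 112, 257 to 562 and 282 to 929. Quantile normalization applied again moved the share of called genes that were lower from 57.0% to 44.9% for DCB in hCAR/hPXR, from 60.3% to 47.7% for CPA in CARko/PXRko, from 43.7% to 54.1% for CPA against DCB in hCAR/hPXR and from 56.9% to 38.8% in CARko/PXRko mice.

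The replicate numbers pair the arrays in few comparisons, with correlations of same-numbered arrays from -0.59 to 0.57. The fit with the replicate block ended 1 member call, Igf1 under DCB in hCAR/hPXR mice, and changed no other member call. Among members not called, 133 values changed sign with 1 array left out, 54 in another probe set, 16 without muscle arrays, 11 with averaged probe sets and 3 with repeated quantile normalization.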
